A study of Homo sapiens with 10 samples.

Results

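The comparison described here sets HaCaT cells that received both LBP and 12 Gy of radiation against cells that received neither. HaCaT is an established human keratinocyte line, and LBP is the polysaccharide-glycoprotein of the goji plant Lycium barbarum. The series holds 10 RNA-seq libraries in 4 groups, all of cells labelled wild type: vehicle alone (n = 2), LBP alone (n = 2), vehicle followed by 12 Gy (n = 3) and LBP followed by 12 Gy (n = 3). Vehicle or LBP was given 24 h before the irradiation, and RNA was taken 3 h after it. The 5 of 10 libraries compared were chosen by these labels: the 3 that had LBP and 12 Gy and the 2 that had vehicle and no radiation. The other 5 libraries entered the fit, where they share the estimate of the spread, and their values stand beside those of the 5. Because both treatments differ between the groups compared, this contrast alone cannot tell their effects apart.

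The labels give no dose of LBP and no name for the vehicle, and they call the source mucosa. HaCaT is an immortal line, which limits it as a model of normal skin or mucosa. All 13 keratinocyte markers on the list had counts in every group, with a summed level of 15620 to 16480 CPM (counts divided by the TMM-scaled library size) in the vehicle libraries and 17120 to 18110 in the LBP plus 12 Gy libraries. Markers of simple and mucosal epithelium were also abundant: all 11 had counts, with sums of 8388 to 8732 CPM with vehicle and 6750 to 7578 with LBP plus 12 Gy. The summed markers of fibroblasts, melanocytes, endothelium and leukocytes were far lower in both groups. Fibroblast markers reached 6.32 to 6.53 CPM with vehicle (6 of 10 with counts) and 6.41 to 7.29 with LBP plus 12 Gy (4 of 10), with DCN and THY1 at 0. Melanocyte markers reached 7.99 to 8.13 (3 of 7) and 6.66 to 6.995 CPM (5 of 7), with TYR and SOX10 at 0. Endothelial markers reached 2.10 to 2.47 and 2.34 to 3.15 CPM (5 of 7 in each group), with PECAM1 and TEK at 0. Leukocyte markers reached 15.45 to 15.8 (6 of 12) and 17.3 to 21.8 CPM (7 of 12), with CD3E, CD3D, CD8A and MS4A1 among those at 0. Depth ran from 31830506 to 62986831 counts per library. The labels call each replicate a repeated experiment group and do not say whether these were separate cultures. The spread behind each p-value is therefore that of these samples alone and may be technical. In bulk RNA, fewer cells of one state and less RNA per cell cannot be told apart.

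As background, NRF2 is the transcription factor that turns on genes for glutathione synthesis, quinone and carbonyl reduction and iron storage when electrophiles or oxidants release it from its inhibitor KEAP1. The aryl hydrocarbon receptor binds planar aromatic compounds and turns on cytochrome P450 genes of family 1. Ionising radiation breaks DNA, and checkpoint kinases then hold cells before mitosis. Transcripts of mitotic genes, which peak in G2 and mitosis, are known to fall after irradiation. Immediate early genes encode transcription factors that rise quickly after growth factors or stress, mostly through ERK and related kinases.

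Of 14799 genes tested, 712 were called at an edgeR quasi-likelihood adjusted p under 0.05, which is 4.81% of all. Of these, 388 were higher after LBP plus 12 Gy (2.62%) and 324 were lower (2.19%). The higher genes showed the larger changes: 85 were at least 2-fold higher (0.574%) and 27 at least 2-fold lower (0.182%), 112 in all (0.757%). For 5627 genes, 38% of those tested, the 3 LBP plus 12 Gy libraries did not overlap the 2 vehicle libraries. The same was true of 711 of the 712 called genes, which is nearly given by the call itself. The median log2 fold change over all genes was 0.0076. The number of calls rested on the small vehicle group: leaving out vehicle replicate 1 left 135 calls, leaving out vehicle replicate 2 left 169, leaving out LBP plus 12 Gy replicate 1 left 447, and fitting only the 5 libraries left 220.

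**Figure D1:**
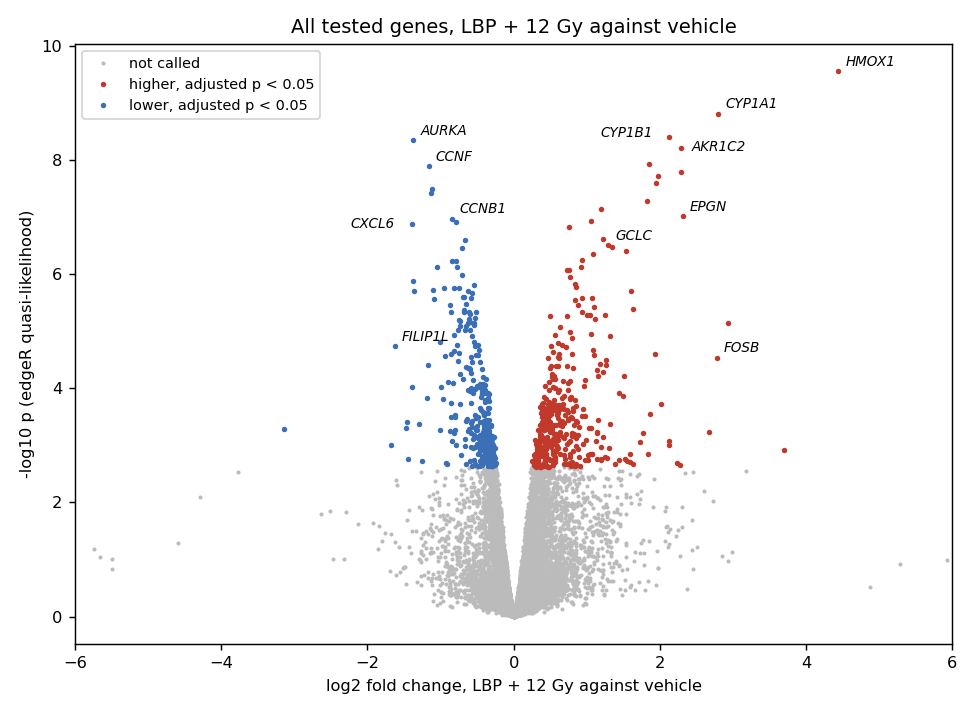
Each point is 1 tested gene, with the log2 fold change of LBP plus 12 Gy against vehicle on the x axis and −log10 of the unadjusted edgeR p on the y axis; red points are the 388 genes called higher and blue points the 324 called lower. HMOX1 and CYP1A1 stand at the upper right and AURKA and CCNF at the upper left, and 19 genes of low count lie outside the x range.

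The highest of the named genes was HMOX1, which encodes haem oxygenase-1, the enzyme that breaks haem into biliverdin, carbon monoxide and iron (chromosome 22, 35380361 to 35394214, plus strand, GENCODE 29 on GRCh38). Its level was 3.55 and 4.84 CPM in the vehicle libraries and 113, 74.95 and 88.7 CPM after LBP plus 12 Gy. The groups were far apart, at 21.7-fold (log2 fold change 4.44 ± 0.24 SE, edgeR adjusted p = 4.1e-06). LBP alone gave 103 and 127 CPM and 12 Gy alone gave 4.27, 4.17 and 6.16 CPM, so the high libraries were the 5 with LBP. The genes for the ferritin subunits, which store iron, moved the same way: FTH1 rose from 3621 ± 32.3 CPM (SD, n = 2) to 6845 ± 734 (SD, n = 3), and FTL by 0.78 on the log2 scale. In the list of haem and iron genes, 6 of 14 were higher and none lower, with a median log2 fold change of 0.30. The other 3 that rose were SLC48A1, a haem transporter (0.53), ABCB6, a porphyrin transporter (0.58), and FECH (0.48). FECH makes haem by inserting iron into a porphyrin. The calls of ABCB6 and FECH were lost when either vehicle library was left out.

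**Figure D2:**
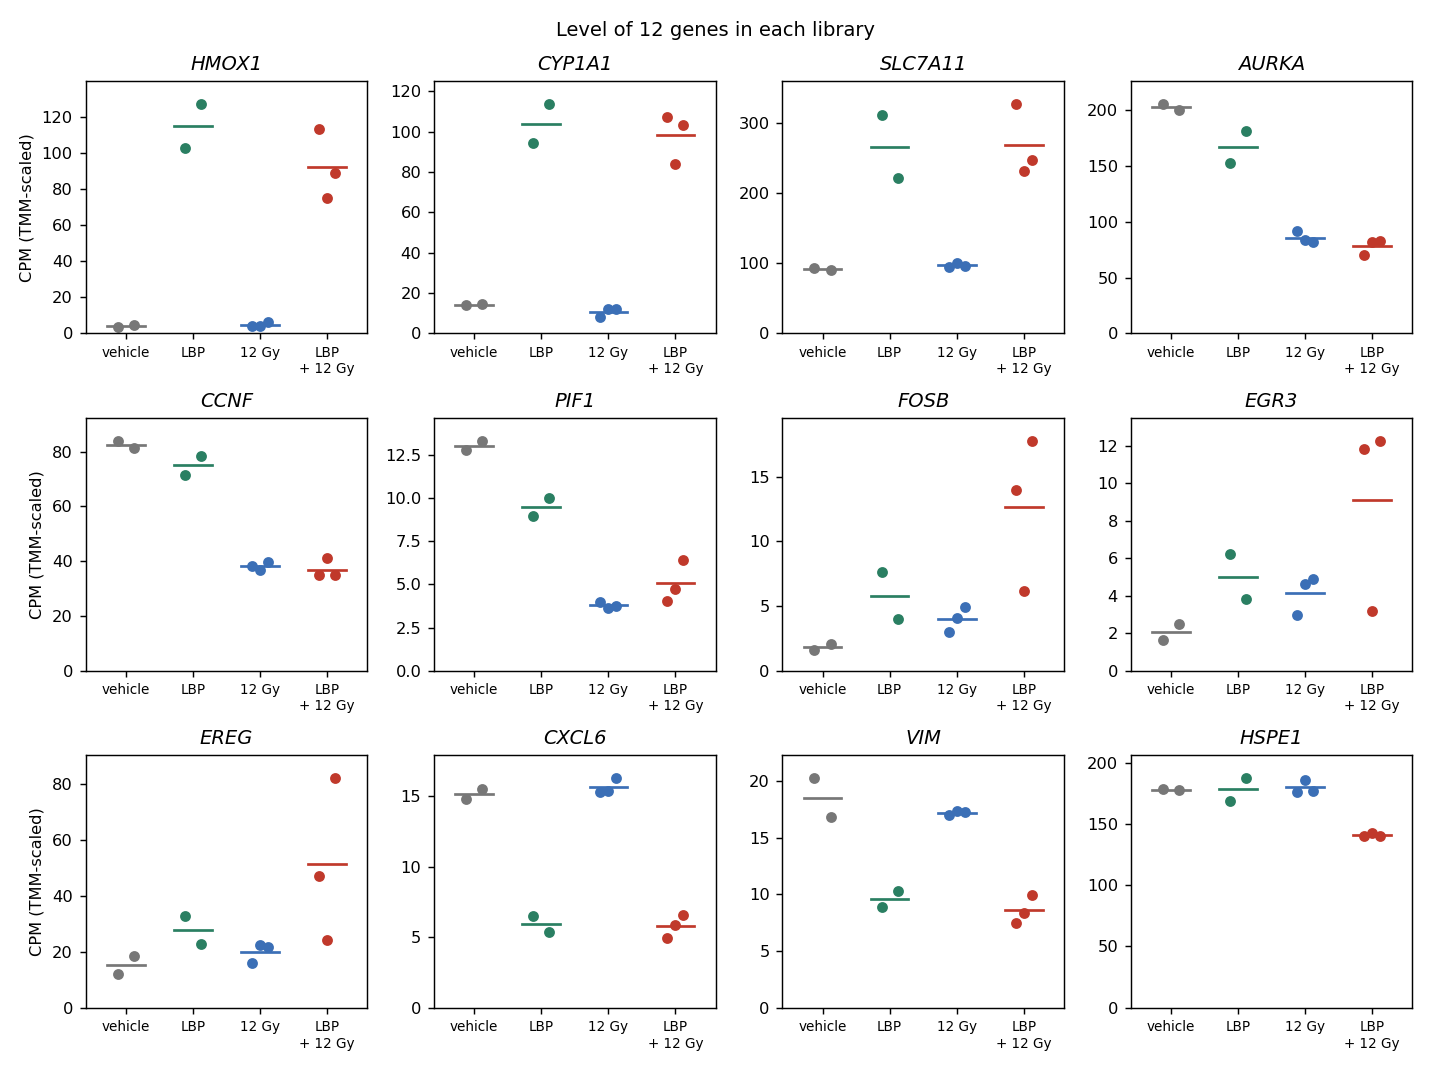
Points are single libraries and bars are group means of TMM-scaled CPM (linear axes from 0) for 12 genes in the 4 groups. HMOX1, CYP1A1 and SLC7A11 are high and CXCL6 and VIM low wherever LBP was given, AURKA, CCNF and PIF1 are low wherever 12 Gy was given, FOSB, EGR3 and EREG are highest in LBP plus 12 Gy replicates 1 and 3, and HSPE1 is lowest in the 3 LBP plus 12 Gy libraries.

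Detoxifying reductases had 12 of 15 members higher and none lower, and their median of 0.83 was the highest of the lists (0.0076 over all genes). AKR1C1, AKR1C2 and AKR1C3 encode aldo-keto reductases that reduce steroids, prostaglandins and lipid aldehydes. AKR1C2 stood at 75.8 and 75.7 CPM with vehicle and at 472, 291 and 348 CPM with LBP plus 12 Gy. That was a 4.89-fold rise (log2 fold change 2.29 ± 0.16, edgeR adjusted p = 1.8e-05), lowest in replicate 2. AKR1C1 (2.29 ± 0.17) and AKR1C3 (1.98 ± 0.15) gave similar values, but these near-identical genes can share reads, so their separate levels are uncertain. NQO1, a quinone reductase, went from 253 ± 6.15 CPM (SD, n = 2) to 526 ± 66.6 (SD, n = 3), 2.08-fold (1.05 ± 0.10, adjusted p = 0.0001). ALDH3A1, an aldehyde dehydrogenase, rose by 1.82 ± 0.15, and AKR1B10, a retinal and aldehyde reductase, by 1.60 ± 0.19. The remaining members that rose were EPHX1 (0.84), UGDH (0.83), PTGR1 (0.57), UGT1A6 (0.49), NQO2 (0.48) and ALDH3A2 (0.39). UGT1A6 shares exons with the other genes of its locus. Calls of NQO2 and ALDH3A2 were lost when either vehicle library was left out.

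The glutathione and cystine list had 8 of 15 members higher, none lower and a median of 0.58. SLC7A11 is the cystine-importing subunit of the xc- exchanger. It stood at 93.4 and 91.3 CPM with vehicle and 328, 231 and 248 CPM with LBP plus 12 Gy, with no overlap (2.91-fold, log2 fold change 1.54 ± 0.16, edgeR adjusted p = 0.00023). Its partner subunit SLC3A2 rose by 0.76 ± 0.08. Both subunits of glutamate-cysteine ligase, which makes the first step of glutathione, rose as well: GCLC from 114 and 114 CPM to 338, 258 and 238 CPM (1.29 ± 0.13) and GCLM from 102 and 100 CPM to 215, 179 and 186 CPM (0.94 ± 0.10). CHAC1, which degrades glutathione, rose by 1.26, ABCC3 by 0.72, GPX2 by 0.46 and ABCC1 by 0.30. Without vehicle replicate 2 the calls of CHAC1, ABCC3, GPX2 and ABCC1 were lost, and those of ABCC3, GPX2 and ABCC1 were also lost without vehicle replicate 1. ABCC1 was lost, in addition, without LBP plus 12 Gy replicate 1 or 3.

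In the thioredoxin list 4 of 13 were higher, with a median of 0.08, so the list as a whole lay near the median of all genes. OSGIN1, an oxidative stress-induced growth inhibitor, rose 3.85-fold (1.95 ± 0.15), TXNRD1, which reduces thioredoxin, by 1.10 ± 0.17, SRXN1, which repairs peroxiredoxins, by 0.94 ± 0.11, and SESN2 by 0.85. The TXNRD1 call was lost without vehicle replicate 1, and that of SESN2 without any 1 of 4 libraries (either vehicle library, or LBP plus 12 Gy replicate 1 or 3). Among enzymes that make NADPH, PGD, of the pentose phosphate pathway, rose by 0.47 and ME1, the cytosolic malic enzyme, by 0.28. Both calls were lost without vehicle replicate 2, and that of ME1 also without vehicle replicate 1 or LBP plus 12 Gy replicate 1 or 2. Of 11 regulators of NRF2, SQSTM1 (0.52), which sequesters KEAP1, MAFG (0.54), a small MAF partner, and NFE2L1 (0.38) were higher and NFE2L3 (−0.35) was lower. All 4 calls were lost when either vehicle library was left out, those of NFE2L3 and MAFG also without LBP plus 12 Gy replicate 1, and that of MAFG also without replicate 3. Without LBP plus 12 Gy replicate 2, 6 regulators were higher.

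Promoters of GCLM and SLC3A2 are shown because they belong to genes that rose and carry the core of the antioxidant response element, TGACNNNGC, on 1 strand or the other. The capitals mark the match. Each stretch ends at a start listed for the gene in RefSeq on GRCh38.p14, which need not be its first, and runs 5′ to 3′ on the gene's strand. The GCLM stretch is chr1:93909431-93909504 on the minus strand, with the match on the opposite strand. The SLC3A2 stretch is chr11:62881622-62881698 on the plus strand. It lies well inside the gene as placed by GENCODE (62856102 to 62888875), so it belongs to an internal start.
GCLM: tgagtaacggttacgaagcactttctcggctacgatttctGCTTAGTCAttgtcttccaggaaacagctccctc
SLC3A2: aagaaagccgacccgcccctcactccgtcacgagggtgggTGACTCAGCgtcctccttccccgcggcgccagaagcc
Searched on both strands, that core was present in 18.5% of 411 promoter windows of genes called higher, against 14.4% of all 15666 windows and 14.9% of the 375 windows of genes called lower (windows run from 250 bases before to 50 after the start, and 10709 tested genes had one). A match is a description of the letters and not a measured site. The AP-1 site TGANTCA, which can overlap this core, was present in 9.98% of the windows of higher genes against 5.53% of all and 4.27% of those of lower genes. The motifs were chosen after the values were seen.

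Targets of the aryl hydrocarbon receptor were higher in 6 of 11 cases, with a median of 0.52. CYP1A1, a cytochrome P450 that oxidises aromatic hydrocarbons (chromosome 15, 74719542 to 74725610, minus strand), stood at 13.9 and 14.4 CPM with vehicle and at 107, 84.0 and 103 CPM with LBP plus 12 Gy. All 3 treated libraries were several times above both controls (6.93-fold, log2 fold change 2.79 ± 0.17, edgeR adjusted p = 1.2e-05). CYP1B1, a second enzyme of that family, rose from 29.6 and 32.9 CPM to 153, 132 and 124 CPM (2.13 ± 0.14). SLC7A5 (0.52) imports leucine and other large amino acids, TIPARP (0.75) is an ADP-ribosyltransferase that restrains the receptor, LRAT (1.43) esterifies retinol, and AHR itself rose by 0.32. Calls of TIPARP and AHR were lost without any 1 of 4 libraries (either vehicle library, or LBP plus 12 Gy replicate 1 or 3), and that of LRAT without vehicle replicate 2. The core letters of the receptor's element, GCGTG, were present in 48.7% of the windows of higher genes and 47.7% of all windows. A pair of cytochrome P450 genes outside the list, CYP4F3 and CYP4F11, which hydroxylate fatty acids, rose by 1.94 ± 0.29 and 1.85 ± 0.14. CYP4F11 stood at 5.92 and 5.41 CPM with vehicle and at 22.5, 19.2 and 19.5 CPM after both treatments. The CYP4F3 call was lost without vehicle replicate 1.

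Genes of the integrated stress response and of its factor ATF4 were higher in 16 of 30 cases, none lower, with a median of 0.49. ASNS, asparagine synthetase, rose from 137 and 133 CPM to 246, 205 and 216 CPM (0.72 ± 0.08, edgeR adjusted p = 0.00036). STC2, the secreted stanniocalcin-2, rose from 70.4 and 64.1 CPM to 158, 106 and 156 CPM (1.06). CTH, which makes cysteine from cystathionine, rose by 0.81, and 5 members named above, SLC7A11, SLC3A2, SLC7A5, CHAC1 and SESN2, belong here too. Several members had smaller changes: MTHFD2 (0.54), TRIB3 (0.46), PSAT1 (0.44), SLC1A5 (0.44), PHGDH (0.42), WARS1 (0.30) and AARS1 (0.29). PPP1R15A, which ends the response by dephosphorylating eIF2α, rose by 1.28 with a wide spread (151, 80.7 and 236 CPM against 55.8 and 72.7). Between 5 and 18 members were called when 1 library was left out, 5 of them without vehicle replicate 2. The calls of CTH, MTHFD2, TRIB3, PSAT1, SLC1A5, PHGDH, WARS1, AARS1 and PPP1R15A were lost without that library and, apart from CTH and PSAT1, also without vehicle replicate 1. PHGDH, WARS1, AARS1 and PPP1R15A were also lost without LBP plus 12 Gy replicate 1, WARS1 and AARS1 without replicate 2, and TRIB3, AARS1 and PPP1R15A without replicate 3. The count was 10 by limma on log2(FPKM + 1). ATF3, a stress-induced factor of this list, had 11.1 and 14.3 CPM with vehicle and 25.9, 14.5 and 82.0 CPM with LBP plus 12 Gy and was not called (1.69 ± 0.52, adjusted p = 0.086). No gene of the 20 on the unfolded protein response list was called (median 0.09).

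Hypoxia and glycolysis genes were higher in 9 of 26 cases, none lower (median 0.30). CA9, carbonic anhydrase 9, had 0.184 and 0.382 CPM with vehicle and 2.71, 1.94 and 2.13 CPM with LBP plus 12 Gy (2.93 ± 0.39, edgeR adjusted p = 0.0013). BNIP3, which targets mitochondria for autophagy, stood at 37.0 and 28.2 CPM and rose to 82.0, 72.6 and 94.0 CPM (1.35 ± 0.13). ALDOC, a glycolytic aldolase, rose by 1.19 ± 0.10 and NDRG1, a stress-responsive gene, by 1.08 ± 0.11. These 4 and BNIP3L (0.64) were called in all 14 alternative settings, whereas calls of SLC2A1 (0.41), HK2 (0.30), PDK1 (0.55) and MXI1 (0.64) were lost when either vehicle library was left out, and that of HK2 also without LBP plus 12 Gy replicate 1 or 3. The glycolysis genes GAPDH, PGK1, ENO1 and LDHA were not called. Other single genes with firm rises were SLC30A1, the zinc exporter (1.22 ± 0.12), TXNIP, the thioredoxin-binding arrestin (1.00 ± 0.13) and its relative ARRDC4 (1.05 ± 0.14). TXNIP stood at 39.95 and 35.4 CPM with vehicle and at 71.4, 89.9 and 65.6 CPM after both treatments.

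Genes of G2 and mitosis were the list with the most genes lower: 38 of 44 fell, none higher, all 44 fold changes were negative, and the median was −0.64. AURKA, the kinase that matures centrosomes (chromosome 20, 56369389 to 56392337, minus strand), stood at 206 and 200 CPM with vehicle and at 70.2, 81.9 and 82.5 CPM with LBP plus 12 Gy. The groups did not overlap (log2 fold change −1.38 ± 0.09, edgeR adjusted p = 1.7e-05). CCNF, cyclin F (chromosome 16, 2429394 to 2458854, plus strand), fell from 83.8 and 81.1 CPM to 34.8, 41.0 and 34.8 CPM (−1.16 ± 0.09, adjusted p = 2.7e-05). PLK1, the kinase that drives mitotic entry, fell from 247 and 251 CPM to 92.1, 120 and 136 CPM (−1.10 ± 0.13). GTSE1, which stabilises microtubules, fell by 1.12 ± 0.09 on the log2 scale, FAM83D, a spindle protein, by 1.13 ± 0.09, KIF18A, a kinesin that aligns chromosomes, by 1.05 ± 0.11, and PIF1, a DNA helicase, by 1.37 ± 0.16. PSRC1, a spindle protein, fell by 1.18, a call lost without vehicle replicate 1. CCNB1, cyclin B1, fell from 370 and 361 CPM to 196, 218 and 199 CPM (−0.84 ± 0.08). CENPA, the centromeric histone, fell from 28.2 and 26.4 CPM to 15.2, 14.6 and 15.9 CPM (−0.84 ± 0.09). The 6 members that were not called were KIF14, CDK1, MAD2L1, AURKB, CDC25B and BUB3, with values from −0.35 to −0.06. Leaving out 1 library gave 25 to 38 lower members, the lowest without vehicle replicate 1, and DESeq2 gave 40.

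The 4 promoter stretches below belong to genes of this list that fell, and each holds TTTGAA, the cell cycle homology region through which the DREAM complex is known to restrain mitotic genes. The capitals mark the match, which lies on the opposite strand in GTSE1. Each stretch ends at a start listed for the gene in RefSeq on GRCh38.p14, except that of CCNF, which stops short of it. They are chr16:2429322-2429407 for CCNF, chr16:23678820-23678888 for PLK1, chr22:46296804-46296869 for GTSE1 and chr2:26785998-26786055 for CENPA, all on the plus strand and written 5′ to 3′. Those of PLK1 and GTSE1 lie wholly inside the genes as placed by GENCODE (23677656 to 23690367 and 46296741 to 46330810).
CCNF: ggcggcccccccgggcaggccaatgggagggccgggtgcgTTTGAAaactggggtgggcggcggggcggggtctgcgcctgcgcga
PLK1: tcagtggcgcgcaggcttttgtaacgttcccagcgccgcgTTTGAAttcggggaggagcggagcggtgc
GTSE1: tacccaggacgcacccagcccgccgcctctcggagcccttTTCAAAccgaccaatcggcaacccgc
CENPA: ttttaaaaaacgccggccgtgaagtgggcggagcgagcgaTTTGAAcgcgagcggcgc
Those letters were present on either strand in 27 of the 47 windows of list members (57.4%), against 10.6% of all 15666 windows. The 47 windows belong to 36 genes, called or not, so a gene with several starts counts more than once. Shares over the list describe its members and would be the same whatever the changes measured here. Genes called lower outside the list had the TTTGAA letters in 21.9% of 338 windows and genes called higher in 9.98% of 411. Those lower genes outside the list still include genes of cell division, such as CDCA2, CDCA3, CDCA8 and CENPL. Their share therefore does not describe non-mitotic genes alone. The CCAAT box, letters CCAAT on either strand, was present in 80.9% of the windows of the list against 34.6% of all windows. The AP-1 letters were in 0 of those 47 windows.

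Other genes of the damage response moved little or were not called. Of 32 p53 targets, 2 were higher and 2 lower, with a median of 0.10. CDKN1A, the p21 inhibitor of cyclin-dependent kinases, had 108 and 128 CPM with vehicle and 225, 126 and 244 CPM with LBP plus 12 Gy. Replicate 2 lay among the controls, and the gene was not called (0.75 ± 0.21, edgeR adjusted p = 0.062). MDM2, the ubiquitin ligase of p53, was near its control level (41.6 and 40.7 CPM against 43.7, 43.3 and 45.2; adjusted p = 0.50). GDF15 rested on replicate 3, with 0.342 and 0.605 CPM against 0.820, 0.678 and 5.67 CPM (adjusted p = 0.11), and GADD45A missed the threshold (0.83 ± 0.22, adjusted p = 0.057). The called targets were SESN2 (0.85), FBXW7 (0.71), CCNG1 (−0.33) and POLH (−0.40), each lost when either vehicle library was left out. Calls of SESN2, POLH and CCNG1 were also lost without LBP plus 12 Gy replicate 1, and those of SESN2, POLH and FBXW7 without replicate 3. Without LBP plus 12 Gy replicate 2, 8 p53 targets were called higher. No gene was called among the 40 of DNA replication and S phase (median −0.07). Single genes fell among 41 of double-strand break repair (RAD54B, −0.47), 24 apoptosis regulators (APAF1, −0.49) and 31 histones (H1-2, −0.39). These are 2.44%, 4.17% and 3.23% of the lists, against 2.19% of all genes called lower, so they say little about the lists. The RAD54B and H1-2 calls were lost when either vehicle library was left out and that of APAF1 without vehicle replicate 1, and those of RAD54B and H1-2 also without LBP plus 12 Gy replicate 1 or 2. The H1-2 call was lost, in addition, without LBP plus 12 Gy replicate 3. In the fit without LBP plus 12 Gy replicate 2, 2 genes of double-strand break repair were lower.

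Immediate early genes were higher in 12 of 29 cases and lower in none, all 29 fold changes were positive, and the median was 0.82. FOSB, a partner of JUN in the AP-1 factor (chromosome 19, 45467995 to 45475179, plus strand), had 1.61 and 2.05 CPM with vehicle and 14, 6.19 and 17.7 CPM with LBP plus 12 Gy. Every treated library was above both controls (log2 fold change 2.78 ± 0.43, edgeR adjusted p = 0.0035). EGR3, a zinc finger factor, had 1.66 and 2.47 CPM against 11.8, 3.21 and 12.2 CPM (2.13, adjusted p = 0.028), and EGR1 had 10.4 and 14.5 CPM against 36.2, 16.7 and 59.7 CPM (1.59, adjusted p = 0.037). In both, replicate 2 stood just above the controls. The FOSB call was lost when either vehicle library was left out, and those of EGR1 and EGR3 also without LBP plus 12 Gy replicate 1 or 3. EGR2 rose by 2.28, JUNB by 1.04, JUND by 0.89, FOSL1 by 0.86, IER2 by 0.82, KLF10 by 0.77, KLF4 by 0.74, FOSL2 by 0.61 and PPP1R15A by 1.28. FOS itself was not called (1.71, adjusted p = 0.057), nor were JUN (0.52) and MYC (0.24).

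The libraries of the treated group differed from each other on this list. The median log2 ratio of its 29 genes to the vehicle mean was 0.80 in replicate 1, 0.33 in replicate 2 and 1.24 in replicate 3 of LBP plus 12 Gy. The vehicle libraries themselves lay at −0.18 and 0.16. With LBP alone the medians were 0.42 and 0.31, and with 12 Gy alone 0.23, 0.32 and 0.44, so replicate 2 of the combined treatment stood at the level of the single treatments. Without LBP plus 12 Gy replicate 2 the list had 21 calls, without replicate 1 it had 7, and without replicate 3 it had 8. Without vehicle replicate 1 it had 0 calls and without vehicle replicate 2 it had 3, and fitting only the 5 libraries left 1. Limma on log2(FPKM + 1) gave 4. On the list of mitotic genes, by contrast, the medians were −0.72, −0.55 and −0.64 in the 3 treated libraries and −0.01 and 0.01 in the controls.

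**Figure D3:**
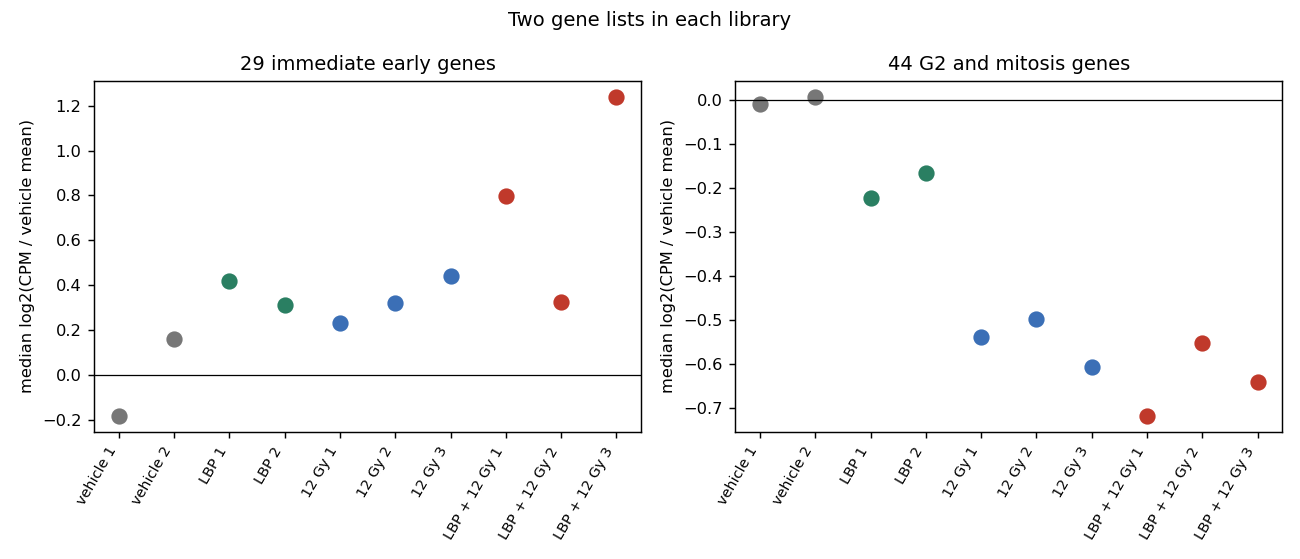
Each point is the median, over the genes of 1 list, of the log2 ratio of a library's CPM to the vehicle mean: 29 immediate early genes on the left and 44 G2 and mitosis genes on the right. On the left the 3 LBP plus 12 Gy libraries lie at 0.80, 0.33 and 1.24, whereas on the right they lie together between −0.72 and −0.55, near the 3 libraries with 12 Gy alone.

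Ligands of the EGF receptor lay among the highest genes. EPGN, epigen, rose from 3.79 and 4.03 CPM to 25.8, 16.03 and 16.4 CPM (2.31 ± 0.21, edgeR adjusted p = 9.6e-05). EREG, epiregulin, had 12.2 and 18.4 CPM against 47.2, 24.3 and 81.9 CPM (1.73, adjusted p = 0.029), again with replicate 2 closest to the controls. HBEGF (1.26, adjusted p = 0.062) and AREG (0.95, adjusted p = 0.063) were not called. Of the 26 genes on the list of ERK targets and EGF ligands, 3 were higher, the third being the phosphatase gene DUSP1 (0.77), and SPRY1, an inhibitor of growth factor signalling, was lower (2.24 and 1.86 CPM against 0.568, 0.832 and 0.952; −1.39 ± 0.24). The SPRY1 call was lost without vehicle replicate 1, those of EREG and DUSP1 when either vehicle library was left out, and that of DUSP1 without LBP plus 12 Gy replicate 3. Without LBP plus 12 Gy replicate 2, 12 members were called higher, against 7 with no filter on low counts and 5 with DESeq2.

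Cytokine genes did not move as one group: of 31 genes of NF-kB and inflammation, 1 was higher and 2 lower (median 0.20). Without LBP plus 12 Gy replicate 2, 6 were higher and 1 lower. CXCL6, a neutrophil chemokine, fell from 14.8 and 15.5 CPM to 4.94, 5.86 and 6.55 CPM (−1.39 ± 0.13, edgeR adjusted p = 0.0001) and was called in all 14 alternative settings. LIF, an interleukin-6 family cytokine, rose (18.4 and 26.9 CPM against 66.5, 29.9 and 59.1; 1.19) and CXCL10, an interferon-induced chemokine, fell from 0.605 and 0.891 CPM to 0.231, 0.308 and 0.295 CPM (−1.45). The LIF and CXCL10 calls were lost when any 1 of 4 libraries was left out (either vehicle library, or LBP plus 12 Gy replicate 1 or 3), and that of CXCL10 also without replicate 2 and by DESeq2. IL6 (1.31, adjusted p = 0.088) and CXCL8 (0.41, adjusted p = 0.67) were not called. Among 32 interferon-stimulated genes IFIT2 (−0.63) and IFIT3 (−0.57), which are antiviral genes, were lower, and both calls were lost when either vehicle library was left out. That of IFIT3 was also lost without LBP plus 12 Gy replicate 1 or 3. Without LBP plus 12 Gy replicate 2, 6 members were lower.

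Heat shock and chaperone genes had 7 of 18 members lower and none higher, with a median of −0.29. HSPE1, the co-chaperonin of the mitochondrial chaperonin, had 178 and 177 CPM with vehicle and 140, 143 and 140 CPM after both treatments (−0.34 ± 0.06, edgeR adjusted p = 0.014). The 3 treated libraries were tightly grouped below all 7 others, which ran from 169 to 187 CPM. CHORDC1, a partner of HSP90, fell from 117 and 135 CPM to 95.9, 92.8 and 86.4 CPM (−0.46 ± 0.08), and HSPH1 fell by 0.36, HSPA8 by 0.55, HSPD1 by 0.31, STIP1 by 0.31 and HSP90AB1 by 0.30 on the log2 scale. Without vehicle replicate 1 the count was 1, without vehicle replicate 2 it was 0, without LBP plus 12 Gy replicate 1 or 3 it was 4, and limma on log2(FPKM + 1) gave 3. DESeq2 called 11.

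Only some of the structural genes of keratinocytes were called. VIM, vimentin, an intermediate filament of mesenchymal and cultured cells, fell from 20.3 and 16.8 CPM to 7.48, 8.35 and 9.997 CPM (−1.10 ± 0.13, edgeR adjusted p = 0.00062). It was 1 of 6 genes lower among 27 of actomyosin and of YAP or SRF targets, whose median was 0.03. FILIP1L had the most negative fold change of the named genes (18.2 and 12.6 CPM against 6.08, 4.13 and 4.62; −1.63 ± 0.24), although its call was lost without vehicle replicate 1. TPM1 (−0.59) and CNN3 (−0.54), which bind actin, were called in all 14 alternative settings. MYL9 (−0.65) and NEXN (−0.91) were not called when either vehicle library, or LBP plus 12 Gy replicate 2 or 3, was left out, nor was MYL9 without replicate 1. DACT1, a regulator of Wnt and cell polarity signalling, fell by 1.19 on the log2 scale and TLN2, a link between integrins and actin, by 1.00, and both calls were lost without vehicle replicate 1, that of DACT1 also without vehicle replicate 2. KRT16, a keratin of activated epidermis, rose from 13.8 and 17.8 CPM to 31.9, 24.96 and 35.7 CPM (0.96, lost without vehicle replicate 1). TGM1 (0.80), SPRR2A (0.89) and KRT10 (0.29) were the 3 of 24 differentiation genes called higher. Of those 24 fold changes, 18 were positive, with a median of 0.32. LAMB3 (0.61), PLEC (0.50) and DSG3 (0.43) were the 3 of 19 basal genes called higher, against 6 without LBP plus 12 Gy replicate 2. All 19 basal fold changes were positive, but the median was small at 0.11. Among 11 markers of simple and mucosal epithelium, MUC1, a membrane mucin, rose (0.62), and KRT8 (−0.35) and KRT18 (−0.38), the keratins of simple epithelium, fell. Of these 9 calls, that of SPRR2A was lost without vehicle replicate 1 and the others when either vehicle library was left out. Leaving out LBP plus 12 Gy replicate 1 ended the calls of SPRR2A, KRT10, DSG3, KRT8 and KRT18, replicate 2 those of TGM1, KRT10, KRT8 and KRT18, and replicate 3 those of TGM1, SPRR2A and KRT10. The summed markers of simple epithelium, led by KRT8 and KRT18, were 8388 to 8732 CPM with vehicle and 6750 to 7578 CPM after both treatments. HYLS1, a centriole gene, fell from 13.7 and 12.5 CPM to 4.56, 6.23 and 4.38 CPM (−1.38 ± 0.16). RBM14-RBM4, also among the 15 lowest (−1.25, adjusted p = 0.044), is a readthrough of neighbouring genes and can share reads with them, and its call was lost when either vehicle library was left out or without LBP plus 12 Gy replicate 1 or 3.

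**Figure D4:**
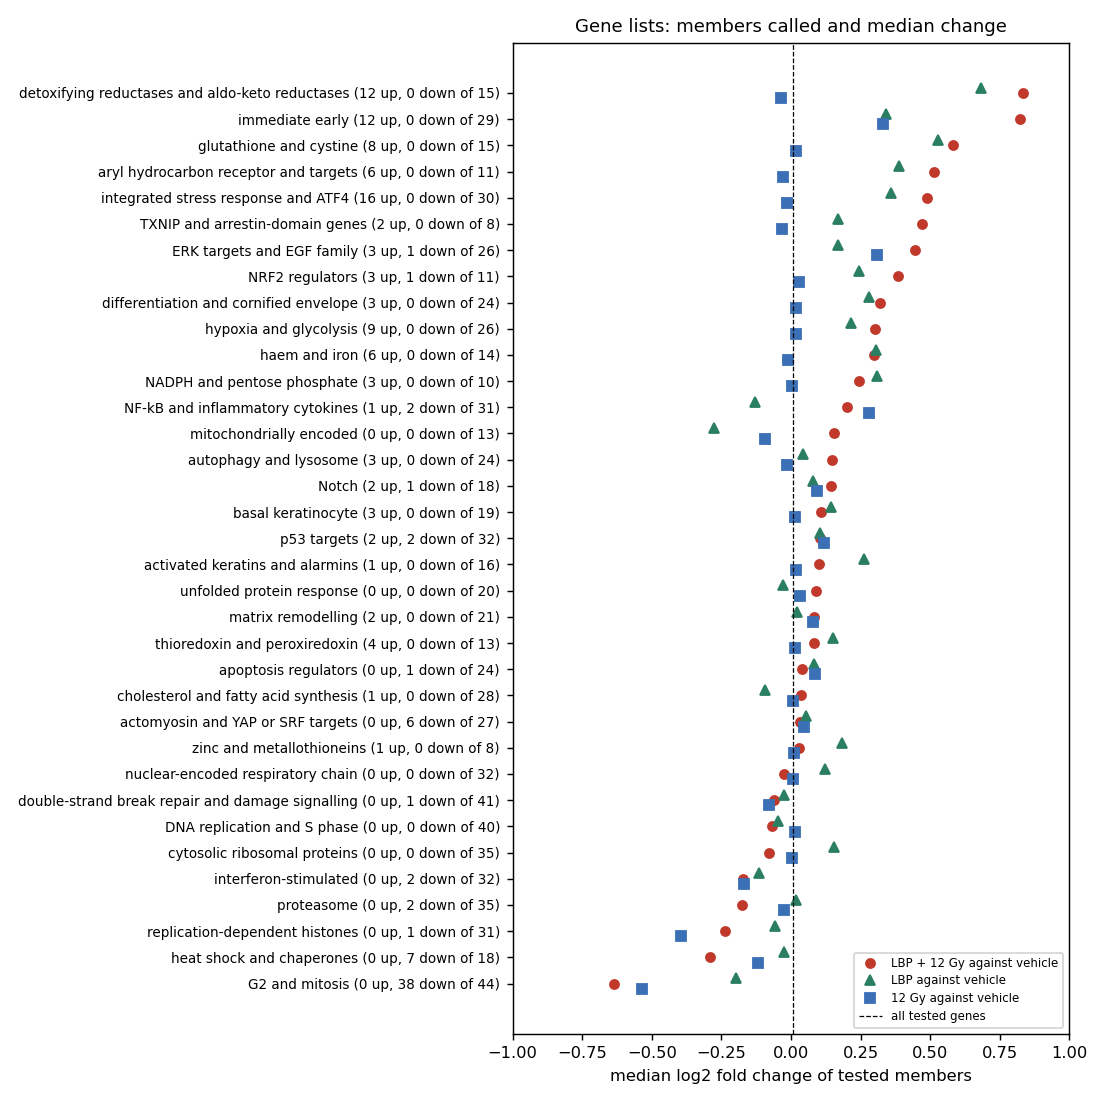
Circles, triangles and squares give the median log2 fold change of the tested members of each gene list for LBP plus 12 Gy, LBP alone and 12 Gy alone, each against vehicle. The members called up and down after LBP plus 12 Gy stand beside each name, and the dashed line is the median of all tested genes for that comparison. Detoxifying reductases (0.83) and immediate early genes (0.82) have the highest medians and G2 and mitosis genes (−0.64) the lowest.

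Other lists had few calls, to be read beside the 2.62% of all genes called higher and the 2.19% called lower. Of 18 Notch genes, NRARP (0.49) and NOTCH1 (0.33) were higher and LFNG (−0.77), which modifies the receptor with sugar, was lower. Among 24 genes of autophagy and lysosomes, SQSTM1 (0.52) and the proteases CTSD (0.47) and CTSL (0.37) were higher. The collagen crosslinker LOXL2 (0.51) was higher in the list of matrix remodelling, and the desaturase gene FADS2 (0.44) among 28 of cholesterol and fatty acid synthesis. The proteasome subunits PSMD2 (−0.32) and PSMD13 (−0.35) were lower among 35. Most proteasome genes had small negative values: 1 of the 35 fold changes was positive, and the median was −0.17. The calls named in these lists were lost without vehicle replicate 1 and, LFNG apart, also without vehicle replicate 2. NOTCH1, CTSL, FADS2, LOXL2, PSMD2 and PSMD13 were also lost without LBP plus 12 Gy replicate 1, PSMD2 without replicate 2, and NOTCH1, NRARP, CTSL, FADS2, LOXL2 and PSMD13 without replicate 3. In the fit without LBP plus 12 Gy replicate 2, 5 genes of autophagy and lysosomes and 2 of cholesterol and fatty acid synthesis were higher.

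Several lists had no called member: the unfolded protein response, S phase, cytosolic ribosomal proteins (35 tested, median −0.08), the nuclear-encoded respiratory chain (32 tested, median −0.02), the 13 mitochondrially encoded genes (median 0.15) and the marker lists of fibroblasts, melanocytes, endothelium and leukocytes. By 41 lists in all, 96 of 826 distinct genes tested were higher and 67 lower, and 549 called genes were in no list.

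The single treatments show where each of these values sits. These comparisons use the same vehicle libraries, or the same LBP plus 12 Gy libraries, so their values are not independent of those above. LBP alone against vehicle had 119 calls (0.804% of genes), 80 higher (0.541%) and 39 lower (0.264%). Radiation alone against vehicle had 65 (0.439%), 5 higher (0.0338%) and 60 lower (0.405%). LBP plus 12 Gy against 12 Gy alone had 645 (4.36%), 413 higher (2.79%) and 232 lower (1.57%), and against LBP alone it had 21 (0.142%), of which 19 were lower (0.128%). Detoxifying reductases had 12 of 15 members higher with LBP alone (median 0.68) and 0 with 12 Gy alone (median −0.04). Glutathione and cystine genes had 5 and 0, haem and iron genes 5 and 0, and stress response genes 7 and 0. HMOX1 changed by 4.75 with LBP alone, 0.20 with 12 Gy alone and 4.44 with both. CYP1A1 had 94.1 and 114 CPM after LBP alone and 8.18, 11.98 and 12.3 CPM after 12 Gy alone. Mitotic genes had 29 of 44 members lower with 12 Gy alone (median −0.54) and 0 with LBP alone (median −0.20). AURKA had 153 and 182 CPM with LBP alone and 92.3, 83.9 and 81.9 CPM with 12 Gy alone.

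The immediate early and chaperone lists had few or no calls under either treatment alone. For immediate early genes the counts were 0 of 29 with LBP alone (median 0.34), 1 with 12 Gy alone (median 0.33) and 12 with both (median 0.82). For chaperones they were 0, 0 and 7 of 18, with medians of −0.03, −0.12 and −0.29. A call in 1 comparison and not in another does not show a difference. LBP plus 12 Gy was also tested directly against each treatment alone. Against 12 Gy alone, 3 of 29 immediate early genes were higher and 2 of 18 chaperone genes were lower. Against LBP alone, 0 genes were called on either list. A separate interaction test asked whether the combined change departs from the sum of the single changes on the log scale (departure from additivity). That interaction was called for 2 of 14799 genes (0.0135%), neither of them on a list, while 1213 had an unadjusted p under 0.05, and DESeq2 called 20. FOSB is an example: it changed by 1.65 with LBP alone, 1.12 with 12 Gy alone and 2.78 with both, with an interaction of 0.01 ± 0.59. HSPE1 changed by 0.00, 0.01 and −0.34, with an interaction of −0.35 (adjusted p = 0.57). PIF1 had the opposite form, −0.46, −1.78 and −1.37, with an interaction of 0.88 ± 0.23 (adjusted p = 0.57).

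**Figure D5:**
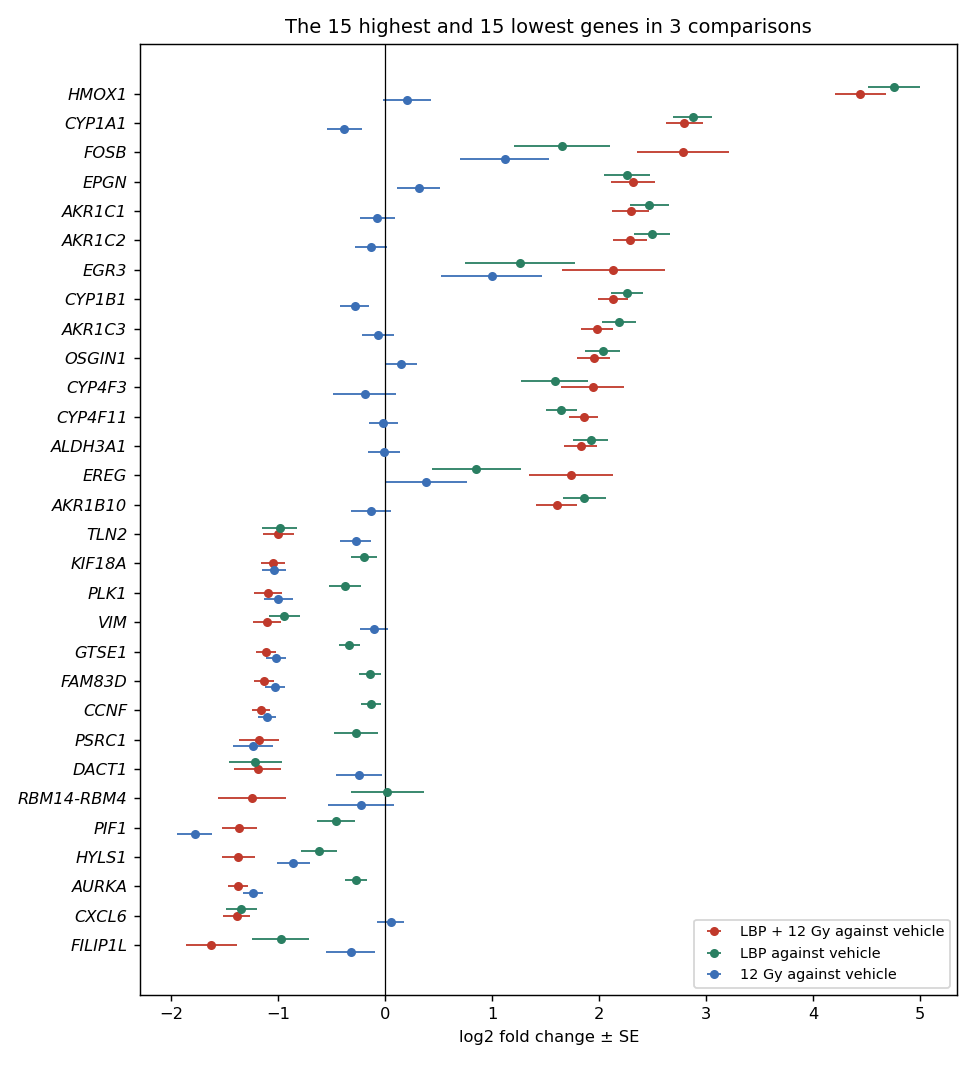
Log2 fold changes with their standard errors for the 15 highest and 15 lowest named genes, for LBP plus 12 Gy, LBP alone and 12 Gy alone against vehicle. For most of the highest genes the first 2 points lie together and 12 Gy alone lies near 0, for AURKA, CCNF, GTSE1, PLK1 and KIF18A the values with and without LBP under 12 Gy lie together, and for FOSB, EGR3 and EREG the combined value lies above both others.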

How the data were processed

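RNA was sequenced from 10 HaCaT libraries. Alignment used HISAT2 and GRCh38, per the submitters' processing notes, which carry no version of either. The read counter, its strand setting and its annotation are also not stated there or in the labels. The authors deposited raw whole-number counts per gene and, for the same genes, FPKM, which divide by gene length and library size. There were 0 columns of other samples. In all, 59.7% of counts from 1 to 10 were even, so some read pairs may be counted by both mates and counting error be larger than the counts imply.

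The test was edgeR 4.0.16, run in R 4.3.3 (filterByExpr with a minimum count of 10, TMM scaling, glmQLFit and glmQLFTest with 1 mean per group over all 10 libraries, 6 residual degrees of freedom, Benjamini-Hochberg adjustment, calls under 0.05). Of 22003 features, 14799 were tested, and all of these are called genes here. The 22003 include 2071 loci with assembled-locus names in place of gene symbols, and 27 of the 712 calls were such loci. Fold changes are fitted log2 values ± SE, and CPM are TMM-scaled. On simulated counts for this comparison, over 14602 genes, the fit recovered 89% of 100 genes changed by 1 on the log2 scale and 100% of 100 changed by 2. Those counts had a spread set by a gene's level alone, and only genes above 1 CPM were changed. The shares therefore may not hold for the real counts or for smaller changes. A count of 3 corresponds to 0.0478 to 0.0925 CPM by library.

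Named genes were the 15 highest and 15 lowest fold changes among called genes with a proper gene symbol, mean log2 CPM from 1 upward and groups that do not overlap, 13 fixed genes, and up to 3 members of each of 41 gene lists by smallest p. The other called or abundant members of a list are given because the text accounts for the whole list, and were chosen after their values were seen. The comparison, the lists and the rules were chosen with earlier results of these data known. Replicate numbers were not taken as pairing: between same-numbered LBP plus 12 Gy and vehicle libraries the deviations from group means correlated at −0.10 and −0.12. Alternatives were DESeq2 1.42.0, 2 other scalings, 2 other filters, and limma 3.58.1 on log2(FPKM + 1) and log2(FPKM + 0.1). Others were a replicate block, only the 5 libraries compared, and each library left out in turn. For LBP plus 12 Gy against vehicle, lists and single genes were checked only where the library left out was 1 of these 5. Promoter windows and motifs come from RefSeq on GRCh38.p14, and gene positions from GENCODE 29. Results for some list members are not reported here.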

Additional observations from a re-analysis of the deposited data

Results flagged for a closer look

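The edgeR interaction test, which sets the LBP change in irradiated cells against that in non-irradiated cells, called 2 genes. PDE8B, a cyclic AMP phosphodiesterase, had an interaction adjusted p of 0.00441. It had 37 and 55 counts with vehicle, 0 and 0 with LBP alone, 37, 60 and 47 with 12 Gy alone and 61, 45 and 65 with LBP plus 12 Gy. The clone-named gene AC008982.1 had an interaction adjusted p of 0.00611, with 0 and 0 counts with vehicle, 21 and 18 with LBP alone, 22, 34 and 33 with 12 Gy alone and 0, 0 and 0 with LBP plus 12 Gy. Neither gene was called in LBP plus 12 Gy against vehicle, and both have few counts. Each had 0 counts in every library of some groups, and the cause of this on-or-off pattern was not tested. Groups of 2 or 3 libraries are too small for a test of single outlying libraries.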

How the results depend on the processing

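The 712 calls (388 higher, 324 lower) became 1286 (670 and 616) with DESeq2, 369 (193 and 176) with limma on log2(FPKM + 1), 376 (198 and 178) on log2(FPKM + 0.1) and 220 (115 and 105) with only the 5 libraries compared. Leaving out 1 library gave 135 to 983 calls, 68 to 585 higher and 67 to 398 lower. The fewest came without vehicle replicate 1 (135), then vehicle replicate 2 (169) and LBP plus 12 Gy replicate 1 (447), and the most without LBP plus 12 Gy replicate 2 (983). Where 1 vehicle library remained, it was assumed to vary like the other groups. Library totals without TMM gave 710, of which 59.9% were higher against 54.5% with TMM. With the replicate block 584 genes were called, of which 513 were shared with the 712. The 2 interaction calls became 20 with DESeq2, 7 without a filter, 1 with the stricter filter, 4 on log2(FPKM + 0.1), 1 with the replicate block and 0 to 5 without 1 library (0 without LBP replicate 2). DESeq2 gave 381 calls for LBP alone, 123 for 12 Gy alone, 1241 for LBP plus 12 Gy against 12 Gy alone and 193 against LBP alone. Limma on log2(FPKM + 1) gave 62, 37, 313 and 10, and on log2(FPKM + 0.1) 69, 41, 304 and 11. Without a filter LBP alone had 188 and 12 Gy after LBP 45. Leaving out 1 library gave 38 to 52, 25 to 35, 176 to 722 and 8 to 51 in the same order. Of 171 called genes named or listed, 66 were called in every setting checked, 42 lost the call in 1 to 3 and 63 in 4 or more, and none changed direction. Up to 14 settings were checked per gene. Fits without a library of LBP alone or of 12 Gy alone were not among them. Changes of direction occurred only in genes that were not called. Leaving out 1 library gave log2 values from −0.12 to 1.31 for CXCL8, −0.70 to 0.24 for MT-ATP8, −0.55 to 0.044 for COL3A1, −0.053 to 0.28 for CDH5 and −0.13 to 0.62 for HLA-DRA, and limma gave −0.025 and −0.037 for COL1A1 on log2(FPKM + 1) and log2(FPKM + 0.1). The cause of these differences was not tested, apart from the smaller number of libraries in the fits that leave some out.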

Other observations

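Zinc finger genes named ZNF, most of which encode DNA-binding repressors, lay slightly above the other genes. This family was chosen after its values were seen. Of 448 tested, 30 were higher after LBP plus 12 Gy and 4 lower, where 2.62% of all genes were higher and 2.19% lower. The median log2 fold change was 0.20 against 0.0076 for all genes. The median was 0.08 with LBP alone and 0.01 with 12 Gy alone. Over the 387 with at least 1 CPM, the median log2 ratio to the vehicle mean was 0.21, 0.17 and 0.19 in the 3 LBP plus 12 Gy libraries, 0.10 and 0.05 with LBP alone and 0.02, 0.05 and −0.08 with 12 Gy alone. Members of this family resemble each other in sequence, and the contribution of shared reads was not tested.

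Some motor genes outside the mitotic list were also lower. The 3 families below were likewise chosen after their values were seen. Over all genes, 2.19% were called lower and 2.62% higher. Among 35 kinesins tested, 10 were lower and none higher: 5 are on that list, and KIF18B, KIF20B, KIFC1, KIF15 and KIF4A are not. Among 22 CENP genes 4 were lower, of which only CENPL (−0.37) is not on the list. In the family of Krüppel-like factors, 3 of 13 were higher (KLF4, KLF5 and KLF10), with a median of 0.37.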
